A study of Mus musculus with 4 samples.

Results

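Krtdap, Sbsn and Dmkn are 3 neighbouring genes of mouse chromosome 7 that encode secreted proteins of stratified epithelia, and their RNA was followed in 4 libraries of cultured mouse keratinocytes. They were chosen by gene name from the 23420 rows of the count table, as a cluster picked for the rise of Krtdap in line MK2 over line MK1. All 3 rows were found, and all 3 were among the 12479 genes that passed the count filter. The study sequenced total RNA from MK1 and MK2, each represented by 2 cultures described as biological replicates, in work on the targets of the epithelial transcription factor p63 in mouse and human. Nothing beyond line and cell type separates the groups in the labels, which name no treatment, genotype, sex, strain or passage. Each line stands for itself alone, so that spread between cultures of a line says nothing about other keratinocyte lines. Because the members were picked in the comparison of MK2 with MK1, their differences between the lines are given as descriptions with no test.

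In the epidermis, keratinocytes leave the basal layer, stop dividing and build the cornified outer barrier. Suprabasin (Sbsn), dermokine (Dmkn) and the keratinocyte differentiation-associated protein (Krtdap) are secreted by cells that have begun this programme, and the genes lie side by side in mouse and human. Sbsn was named for its place above the basal layer, Dmkn makes long and short proteins from more than 1 start site, and Krtdap encodes a short protein carried in lamellar granules.

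The 3 genes lie on the plus strand of mm10 within 39613 bases. Sbsn spans chr7:30751471-30756134 with 4 exons, Dmkn spans chr7:30763756-30781066 with 21 exons, and Krtdap spans chr7:30787905-30791083 with 6 exons. A gap of 7621 bases separates Sbsn from Dmkn, and 6838 bases separate Dmkn from Krtdap. No other row of the table lies between them. The counted exon length is 2286 bases for Sbsn, 2164 for Dmkn and 456 for Krtdap, so equal numbers of transcripts give fewer reads for Krtdap. Long and short Dmkn transcripts were counted together.

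The promoters are shown because the 3 genes share a neighbourhood yet differed in how their levels compared between the lines. Each sequence is the RefSeq promoter on GRCm38.p6 (the mm10 assembly), 300 bases on the plus strand with 250 before the start and 50 from it onward. Capitals mark every match to TGANTCA, the motif bound by AP-1 factors. The second Dmkn sequence belongs to the start of the short transcripts, and a further Dmkn entry that begins 2 bases after the first is left out.
Sbsn, chr7:30751221-30751520: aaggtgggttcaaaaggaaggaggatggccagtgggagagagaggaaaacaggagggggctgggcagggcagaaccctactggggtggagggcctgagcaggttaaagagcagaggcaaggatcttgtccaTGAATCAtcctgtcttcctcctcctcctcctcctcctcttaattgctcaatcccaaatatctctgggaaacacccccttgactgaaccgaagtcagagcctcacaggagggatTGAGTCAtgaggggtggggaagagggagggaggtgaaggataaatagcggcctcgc
Dmkn, chr7:30763506-30763805: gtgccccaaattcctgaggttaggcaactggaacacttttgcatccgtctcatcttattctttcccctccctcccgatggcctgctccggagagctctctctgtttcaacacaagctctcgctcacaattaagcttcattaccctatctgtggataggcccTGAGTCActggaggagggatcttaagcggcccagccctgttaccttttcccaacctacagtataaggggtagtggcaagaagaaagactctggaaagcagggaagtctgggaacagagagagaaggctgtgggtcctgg
Dmkn short transcripts, chr7:30776155-30776454: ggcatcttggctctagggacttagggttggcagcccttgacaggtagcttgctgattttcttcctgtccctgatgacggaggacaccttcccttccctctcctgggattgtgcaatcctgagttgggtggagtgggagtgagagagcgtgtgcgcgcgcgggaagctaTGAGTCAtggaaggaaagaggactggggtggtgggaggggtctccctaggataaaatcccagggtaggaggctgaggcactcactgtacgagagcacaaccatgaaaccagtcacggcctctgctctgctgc
Krtdap, chr7:30787655-30787954: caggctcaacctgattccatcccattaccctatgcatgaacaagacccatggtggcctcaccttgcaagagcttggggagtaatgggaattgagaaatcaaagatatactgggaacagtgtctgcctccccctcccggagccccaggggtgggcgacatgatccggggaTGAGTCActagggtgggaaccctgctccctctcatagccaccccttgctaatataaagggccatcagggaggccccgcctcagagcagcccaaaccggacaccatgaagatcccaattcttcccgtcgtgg

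The heptamer TGAGTCA was present, in that orientation, in every one of these promoters. Counting the first transcribed base as 1 and the base before it as -1, it began at -81 in Krtdap, at -82 and -89 at the Dmkn starts and at -6 in Sbsn. Sbsn held a second AP-1 match, TGAATCA, at -119. Of 32851 RefSeq promoters of the same length, 5.20% held TGAGTCA on either strand and 7.81% held TGANTCA, which includes it. TATAAA, the core of the TATA box, was searched on the gene's own strand and was found at -30 in Krtdap alone of the 3 genes, and in 8.32% of all promoters. CACCC, bound by Krüppel-like factors, was found on either strand in Krtdap, in Sbsn and at the short Dmkn start, as in 57.5% of promoters. TTNNGNAA, a C/EBP motif, was found in all 3 genes, as in 40.7% of promoters. AACCNG, the first bases of the grainyhead motif, was found in Krtdap, in Sbsn and at the short Dmkn start, as in 39.4% of promoters. No match to another motif overlapped an AP-1 match. GC content lay between 52.0% and 57.3%, and the median of all promoters was 52.7%. The motifs were chosen after the sequences had been read, and a match describes letters, not binding.

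Levels are given as CPM, read counts per 1000000 counts of a library after scaling by TMM (a correction for library composition). The libraries held 25237391 to 30261111 counts. A level over a culture joins the number of expressing cells and the RNA in each, which cannot be told apart here. All 15 of 15 listed basal keratinocyte markers were tested, and their summed level was 27055 to 29937 CPM in the 4 libraries. Krt5 and Krt14 made up most of it. Of the 15, 3 were higher and 4 lower in MK2 (edgeR adjusted p under 0.05). These are 20% and 26.7%, beside 25.9% and 28.7% of all genes. The lists of other cell types stood at 4.51 to 4.97 CPM (fibroblast, 11 genes, 4 of them at 0 throughout) and 5.36 to 6.08 CPM (melanocyte, 7 genes) in MK1, and at 1.03 to 1.41 and 3.54 to 3.98 CPM in MK2. Endothelial markers (6 genes, 3 of them at 0 throughout) summed to 14.9 to 17.8 CPM in MK1 and 25.4 to 27.4 CPM in MK2. Most of that sum was Kdr alone, at 17.1 and 14 CPM in MK1 and 24.4 and 26.2 CPM in MK2, so it does not describe the set. Sebaceous and hair markers (11 genes) summed to 18.0 to 18.6 CPM in MK1 and 35.2 to 37.9 CPM in MK2. Most of that sum was Soat1, at 17.2 and 17.4 CPM in MK1 and 27.6 and 28 CPM in MK2. Hoxc13 stood at 0.23 and 0.149 CPM in MK1 and 9.37 and 6.31 CPM in MK2. The other genes of the list stayed under 1 CPM in every library.

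Krtdap was almost without reads in MK1 and abundant in MK2. The MK1 libraries held 3 and 14 Krtdap reads, and the MK2 libraries held 10736 and 9096. These counts correspond to 0.0987 and 0.521 CPM in MK1 and to 426 and 321 CPM in MK2. Both MK2 libraries lay far above both MK1 libraries, with no overlap. The means were 0.310 ± 0.299 and 374 ± 74.8 CPM (SD, n = 2 cultures of a line). Over the pooled reads of a line the level in MK2 was 1248 times that in MK1, with a 95% counting interval of 779 to 2143, which covers counting error only. The fitted log2 fold change was 9.97 (SE 0.42). It was 9.29 without MK1 replicate 1 and 11.10 without MK1 replicate 2. The MK1 level rests on 17 reads, 3 in replicate 1 and 14 in replicate 2. Krtdap passed the count filter through MK2 alone. Of all rows, 2 genes lay under 1 CPM in each MK1 library and at 100 CPM or more in each MK2 library. They were Krtdap and Thbd, which encodes thrombomodulin. Thbd, singled out after its values were seen, stood at 0.428 and 0.633 CPM in MK1 and at 193 and 335 CPM in MK2.

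Sbsn was well expressed in both lines. It stood at 165 and 206 CPM in the MK1 libraries and at 159 and 164 CPM in the MK2 libraries, with means of 185 ± 28.4 and 162 ± 3.74 CPM (SD, n = 2). Both MK2 values lay below both MK1 values, although the lower MK1 value and the higher MK2 value nearly met. The log2 fold change was -0.20 (SE 0.13), which is -0.35 without MK1 replicate 1 and -0.03 without MK1 replicate 2. GENCODE M21 places a second transcript, Tmem147os, on the same strand across Sbsn. It has no row in the table, and it shares 6.96% of the 50-base windows of Sbsn transcripts. None of the Dmkn or Krtdap windows occurred in transcripts of another gene (0 windows).

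Dmkn was strongly expressed and about as abundant in MK2 as in MK1. Its levels were 465 and 585 CPM in MK1 and 552 and 524 CPM in MK2, and the MK2 values lay between those of MK1. The means were 525 ± 84.6 and 538 ± 19.8 CPM (SD, n = 2). The log2 fold change was 0.04 (SE 0.13). Its sign depended on the setting: it was -0.02 with upper-quartile scaling and -0.12 without MK1 replicate 1. For scale, 28.4% of all tested genes had a log2 fold change between -0.25 and 0.25, and the median size over all tested genes was 0.48.

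**Figure D1:**
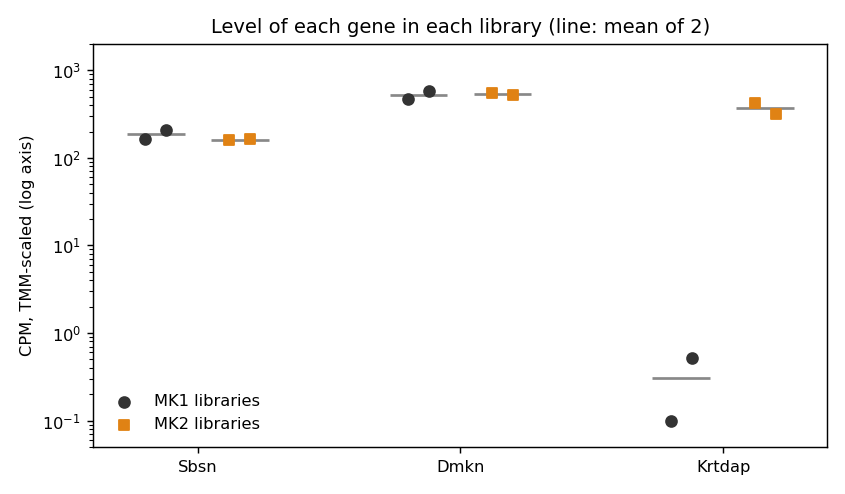
Level of Sbsn, Dmkn and Krtdap in each library in CPM on a log axis, with circles for MK1, squares for MK2 and a line at the mean of 2 libraries. Sbsn and Dmkn sit between 159 and 585 CPM in every library, whereas Krtdap sits under 1 CPM in MK1 and at 321 and 426 CPM in MK2.

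Krtdap and Dmkn, next to each other on the chromosome, thus differed by 9.94 in their log2 fold changes, and Dmkn and Sbsn differed by 0.23. Among 12452 pairs of neighbouring tested genes the median difference was 0.67, and 13 pairs differed by at least as much as Krtdap and Dmkn. The 13 include that pair itself and the pair of Krtdap with Cd22, the next tested gene. This places the pair that was picked for its difference and is no test of it.

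Per length, the order of the 3 genes differed between the lines. TPM, which divides counts by exon length, put Dmkn first in MK1 at 455 and 559, Sbsn next at 153 and 186, and Krtdap last at 0.458 and 2.37. In MK2 Krtdap came first at 1888 and 1393 TPM, followed by Dmkn at 515 and 480 and Sbsn at 141 and 143. Within a line, the values of neighbours in that order did not overlap between cultures. Krtdap ranked at places 91 and 106 of all genes in MK2, and at 12123 and 10520 in MK1. Dmkn ranked between 234 and 296 in all 4 libraries, and Sbsn between 867 and 1139. Of the summed TPM of the 3 genes, Krtdap made up 0.0753% and 0.316% in MK1 and 74.2% and 69.1% in MK2. By reads alone, without the division by length, Krtdap held 37.5% and 31.8% in MK2. The ratio of Dmkn to Sbsn stayed in a narrower range, at 2.97 and 3.01 in MK1 and 3.66 and 3.37 in MK2.

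**Figure D2:**
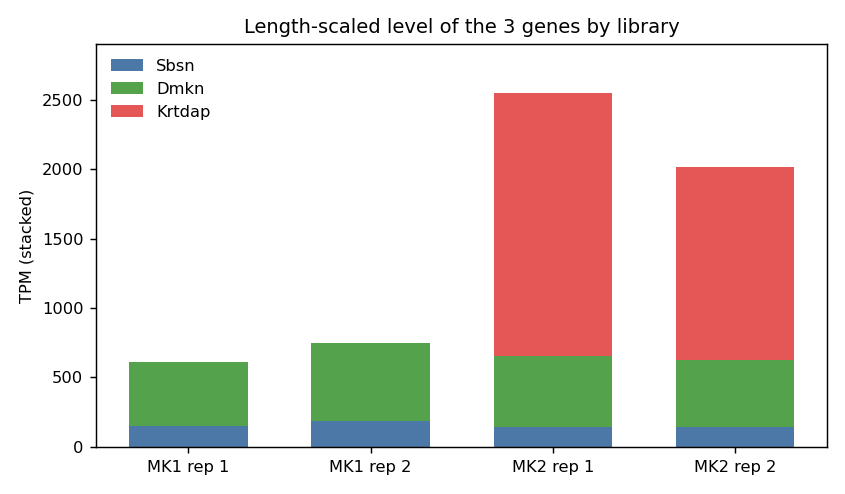
Stacked TPM of Sbsn, Dmkn and Krtdap in each of the 4 libraries, each bar starting at 0. The sum is 609 and 748 TPM in the MK1 libraries and 2544 and 2016 TPM in the MK2 libraries, and the Krtdap part is too thin to see in MK1.

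Cultures of the same line also differed, in a comparison that the choice of genes did not use. With replicate 2 set against replicate 1 in MK1, Sbsn was 1.24 times higher (95% counting interval 1.20 to 1.29) and Dmkn 1.26 times higher (1.23 to 1.29). Krtdap was 5.28 times higher, from few reads (1.47 to 28.7). In MK2 the ratio was 1.03 (0.990 to 1.08) for Sbsn, 0.949 (0.928 to 0.972) for Dmkn and 0.752 (0.731 to 0.773) for Krtdap. All 3 genes were therefore higher in the same MK1 culture, and in MK2 Krtdap and Dmkn were lower in replicate 2. On the log2 scale the MK1 ratios of Sbsn and Dmkn were 0.31 and 0.33, and 95% of the 2248 genes at 100 CPM or more in MK1 lay below 0.26. For Krtdap in MK2 the log2 ratio was -0.41, and 5% of the 2364 genes at that level in MK2 lay below -0.35. Listed genes of the upper epidermis at 10 CPM or more did not share these directions: 8 of 23 were higher in MK1 replicate 2 (median log2 ratio -0.05), and 17 of 22 were higher in MK2 replicate 2 (median 0.27). With 1 library on each side these are differences between libraries, without replicate error.

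**Figure D3:**
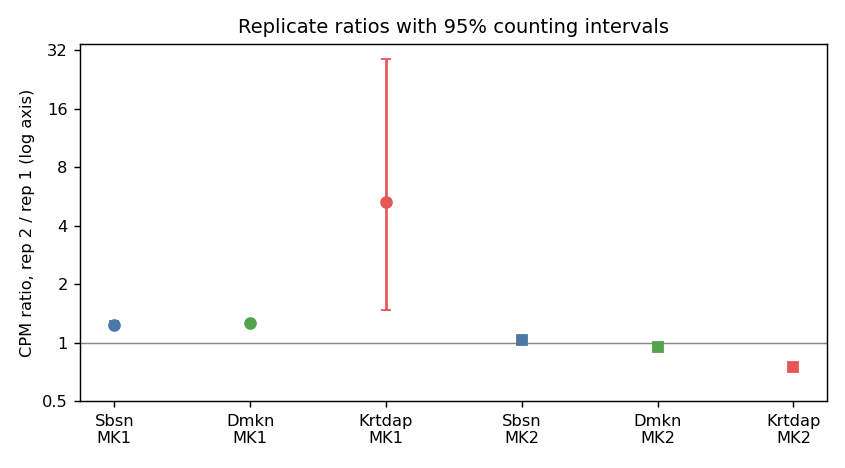
Ratio of replicate 2 to replicate 1 in CPM on a log axis for each gene in each line, with 95% counting intervals as bars and a line at 1. The MK1 ratios lie above 1 for all 3 genes, and the MK2 ratio of Krtdap lies at 0.752.

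The tested genes around the cluster showed no rise like that of Krtdap. Krtdap was picked for its rise and ranked at place 3 of 12479 tested genes by log2 fold change, so this contrast is no test. Within 500 kb on either side, 53 other rows were present, and 29 of them passed the count filter. Of these, 1 was higher and 11 were lower in MK2 (quasi-likelihood F test in edgeR, Benjamini-Hochberg adjusted p under 0.05), which is 3.45% and 37.9%. Among all genes tested, 25.9% were higher and 28.7% lower, together 54.6%, and on chromosome 7 17.1% and 31.4%. The neighbours' median log2 fold change was -0.28, their range was -3.57 to 1.16, and the medians of chromosome 7 and of all genes were -0.11 and -0.01. The counts of higher and lower neighbours were 0 and 6 without MK1 replicate 1, 1 and 6 without MK1 replicate 2, 2 and 10 without MK2 replicate 1, and 0 and 12 without MK2 replicate 2.

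Of the 4 nearest tested genes before Sbsn, 3 did not pass the test. Gapdhs, the sperm form of a glycolytic enzyme, stood at 1.58 ± 0.188 and 1.53 ± 0.419 CPM in MK1 and MK2, and Tmem147, a membrane protein of the endoplasmic reticulum, at 116 ± 10.3 and 107 ± 8.78 CPM (adjusted p = 0.904 and 0.452, n = 2, edgeR). Haus5, a subunit of the augmin complex of the spindle, stood at 23.9 ± 1.99 and 27.5 ± 3.71 CPM (edgeR adjusted p = 0.264). Rbm42, an RNA-binding protein, fell from 95.8 ± 4.59 to 70.7 ± 8.13 CPM (edgeR adjusted p = 0.0181). The Rbm42 call ended without MK1 replicate 1, MK1 replicate 2 or MK2 replicate 1 (edgeR adjusted p = 0.0808, 0.124 and 0.0619). The untested rows Ffar2, Ffar3 and Ffar1, which encode fatty-acid receptors and lie next after Krtdap, had at most 3 reads in any library.

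The first tested gene beyond Krtdap was Cd22, a B-lymphocyte receptor 74320 bases away. It fell from 2.99 ± 0.188 to 0.183 ± 0.0903 CPM (SD, n = 2, edgeR adjusted p = 2.17e-04), and it passed the filter through MK1 alone. Leukocyte markers moved with it: all 9 tested of 16 listed fell, and the list's summed level was 48.6 to 51.4 CPM in MK1 and 2.66 to 3.42 CPM in MK2. Tyrobp and Cd207 had 0 reads throughout. The part of such cells in the Cd22 difference was not tested. Further on, the transcription factor gene Usf2 and the tricellular-junction gene Lsr stood at 57.6 ± 1.32 and 172 ± 4.97 CPM in MK1 and at 52.9 ± 0.278 and 139 ± 21.8 CPM in MK2, without passing the test (edgeR adjusted p = 0.342 and 0.0830). Fam187b stood at 1.24 and 2.17 CPM (edgeR adjusted p = 0.0508). Lsr was called lower without MK2 replicate 2 (edgeR adjusted p = 0.00988), and Fam187b was called higher without MK2 replicate 1 (edgeR adjusted p = 0.0326).

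After Cd22, the largest decreases among the called neighbours lay 305888 bases or more before Sbsn. Lrfn3, a synaptic adhesion protein, fell from 14.3 ± 0.548 to 1.79 ± 0.167 CPM. Aplp1, a relative of the amyloid precursor protein, fell from 21.7 ± 2.14 to 3.62 ± 1.86 CPM. Nfkbid, an inhibitor protein of the NF-kappa-B pathway, fell from 1.21 ± 0.0317 to 0.0728 ± 0.0467 CPM (edgeR adjusted p = 3.27e-05, 0.00136 and 6.61e-04). Since only the MK1 libraries carried Nfkbid past the count filter, it could only be found lower. The single neighbour that rose was Fxyd5, a regulator of the sodium pump named after its value was seen, with 82 and 137 reads in MK1 and 168 and 309 in MK2 (edgeR adjusted p = 0.0351). Its call ended without MK1 replicate 1 (edgeR adjusted p = 0.171) and without MK2 replicate 2 (edgeR adjusted p = 0.0929).

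**Figure D4:**
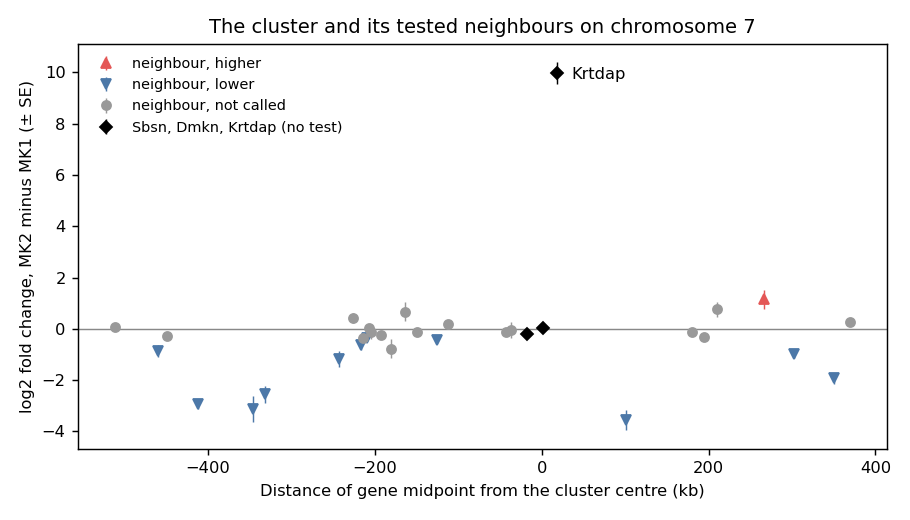
Log2 fold change of MK2 minus MK1 with its standard error for the 29 tested neighbours and the 3 genes, against the distance of each gene's midpoint from the cluster centre in kb. Upward triangles are called higher, downward triangles lower, circles not called, and diamonds are Sbsn, Dmkn and Krtdap, of which Krtdap alone stands near 10.

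Genes expressed in the same epidermal layers as the cluster were described from 5 lists. Of 80 rows found, 43 passed the count filter, and 17 had 0 reads in all 4 libraries. Of the 43, 16 were higher in MK2 and 11 lower, which is 37.2% and 25.6% beside 25.9% and 28.7% of all genes. Their median log2 fold change was 0.69, whereas the lists' summed level was lower in MK2. That sum was 3467 and 3186 CPM in the MK1 libraries and 2625 and 2862 CPM in the MK2 libraries. Its largest parts, Ppl and S100a14, fell from means of 859 and 654 CPM to 490 and 407 CPM, so it does not describe the set. Without MK1 replicate 1 the counts were 10 and 7. Some members, such as Sptlc3, passed the filter through MK2 alone and could only be found higher, and others, such as Degs2, passed through MK1 alone and could only be found lower, so the counts describe these genes and call nothing particular to the lists.

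Among cornified-envelope genes, 4 of 9 tested rose and 3 fell (44.4% and 33.3%, beside 25.9% and 28.7% of all genes). Ivl, which encodes the envelope protein involucrin, rose from 10.4 ± 1.83 to 57.7 ± 12.6 CPM. The cross-linking enzyme Tgm1 rose from 0.735 ± 0.435 to 2.21 ± 0.210 CPM, and the protease inhibitor Csta rose from 2.15 ± 0.485 to 5.16 ± 1.12 CPM. Tchh, which encodes trichohyalin, fell by 1.90 on the log2 scale from 22.6 ± 2.66 CPM. The other called genes, named after their values were seen, were Lor, Ppl and Evpl. Lor stayed under 1 CPM in every library, passed the filter through MK2 alone and could only be found higher. Ppl fell from 859 ± 122 to 490 ± 139 CPM and Evpl from 151 ± 8.76 to 116 ± 16.9 CPM (edgeR adjusted p = 0.0189 and 0.0402). Without MK1 replicate 1, Tgm1 and Csta were no longer called (edgeR adjusted p = 0.0956 and 0.0750). Among suprabasal keratins and desmosomal proteins, 3 of 5 tested rose and 0 fell (60% and 0%, beside 25.9% and 28.7% of all genes). The cadherins Dsg1a and Dsg1b were called higher but passed the filter through MK2 alone and could only be found higher. Both stayed under 1 CPM in every library. Krt10 rose from 2.24 ± 0.0480 to 4.06 ± 0.712 CPM. The Krt10 call ended without MK1 replicate 1, MK1 replicate 2 or MK2 replicate 1 (edgeR adjusted p = 0.122, 0.10 and 0.0789) and in DESeq2 (adjusted p = 0.0549). Krt1 and Krt2 had no reads in any library.

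Of 7 tested genes for other secreted or surface proteins, 1 rose and 1 fell (14.3% each, beside 25.9% and 28.7% of all genes). The fatty-acid carrier Fabp5 rose from 80.1 ± 25.6 to 199 ± 22.9 CPM, and S100a14 fell from 654 ± 17 to 407 ± 45.4 CPM. Of 8 tested proteases and inhibitors, 4 rose and 3 fell (50% and 37.5%, beside the same shares of all genes). Klk10, a kallikrein, rose from 1.17 ± 0.391 to 8.29 ± 2.10 CPM and the retroviral-like protease Asprv1 from 0.268 ± 0.147 to 1.23 ± 0.0550 CPM, a call that ended without MK1 replicate 1 (edgeR adjusted p = 0.0613). Klk8 fell from 67.9 ± 1.81 to 8.08 ± 2.04 CPM, and the membrane protease Prss8 from 41.5 ± 0.0935 to 12.2 ± 4.55 CPM.

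Of 14 tested barrier-lipid genes, 4 rose and 4 fell (28.6% each, close to the 25.9% and 28.7% of all genes). Abca12, the lipid transporter of lamellar granules, rose from 4.80 ± 0.643 to 149 ± 18.2 CPM. Sptlc3, a subunit of the enzyme that starts ceramide synthesis, rose from 0.0701 ± 0.00615 to 9.72 ± 1.14 CPM, and the lipoxygenase Alox8 from 0.662 ± 0.0408 to 2.71 ± 0.353 CPM. Degs2, which makes phytoceramide, fell from 2.37 ± 0.282 to 0.0750 ± 0.00631 CPM.

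Of 36 tested transcription factors and Notch genes of epidermal differentiation, 7 rose and 17 fell, which is 19.4% and 47.2% beside 25.9% and 28.7% of all genes. Their median log2 fold change was -0.43. Among the larger decreases, Cebpa fell from 10.3 ± 0.948 to 0.646 ± 0.183 CPM and Elf3 from 24.1 ± 0.161 to 1.60 ± 0.632 CPM. Ehf stood at 7.20 and 2.83 CPM in MK1 and at 0.0397 and 0.0353 CPM in MK2, having passed the filter through MK1 alone. Across the genes of the lists and regulators that were named by rule, edgeR's adjusted p lay between 2.12e-06 for Abca12 and 0.0195 for Krt10. Keratins of simple epithelia also moved with the lines: all 4 tested of 5 listed fell, and their summed level was 3782 to 3922 CPM in MK1 and 29.5 to 35.7 CPM in MK2. Their part in the Krtdap difference was not tested.

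**Figure D5:**
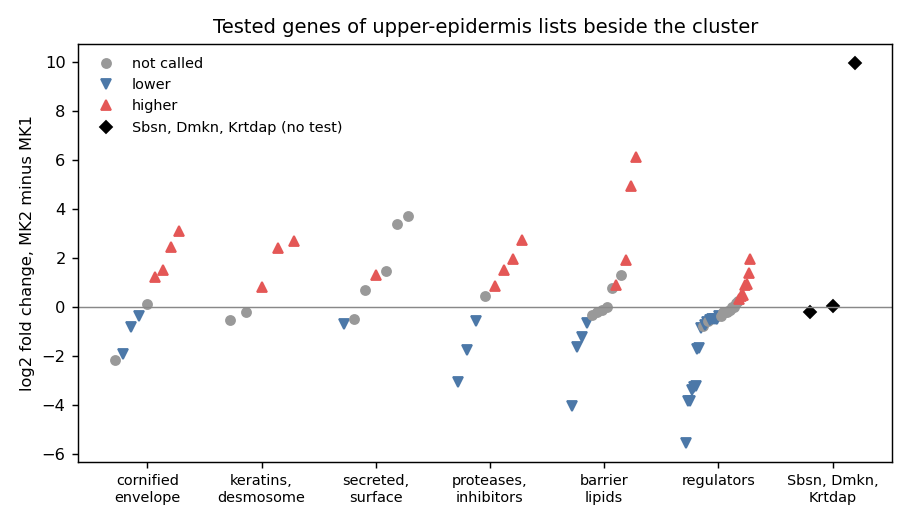
Log2 fold change of MK2 minus MK1 for the tested genes of the 5 upper-epidermis lists and the regulators, with each gene a point placed by list, beside Sbsn, Dmkn and Krtdap as diamonds. Upward triangles are called higher, downward triangles lower and circles not called, and Krtdap at 9.97 lies above every listed gene.

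The genes with the most similar profiles were found by the distance between log2 CPM values, centred on each gene's mean, over the 4 libraries. Nearest to Krtdap were Ddx3y, Kdm5d, Eif2s3y, Slc32a1 and Uty, at distances of 1.29 to 1.89. Of these, 4 are Y-linked, and Slc32a1 encodes the vesicular GABA transporter. The 5 genes had at most 0.0372 CPM in MK1 and 31.0 to 102 CPM in MK2. Xist, an X-linked gene named after its values were seen, went the other way. It stood at 1658 and 1879 CPM in MK1 and at 0.119 and 0.141 CPM in MK2. Y-linked and Xist reads thus separated the lines, although the labels name no sex. What such differences between the lines had to do with the level of Krtdap was not tested. Nearest to Dmkn were Them6, Ccne1, Krr1, Zfp958 and Ears2, at 0.0161 to 0.0551, and nearest to Sbsn were Higd1a, Mns1, Sf3b5, Tmem167 and Dffb, at 0.0135 to 0.0643. Ccne1, which encodes cyclin E1, stood at 46.5 and 58.0 CPM in MK1 and 56.4 and 53.2 CPM in MK2, the same order of libraries as Dmkn. Higd1a, a mitochondrial protein, stood at 47.1 and 58.0 CPM in MK1 and 44.8 and 46.3 CPM in MK2. No listed gene of the upper epidermis was among these 15 genes, and 4 libraries give a coarse measure of likeness.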

How the data were processed

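Total RNA was extracted with a Direct-zol kit and made into TruSeq RNA libraries, per the labels' protocols. The authors deposited raw counts of reads per gene, not normalised. Per the file headers, the authors assigned TopHat alignments to exons of the UCSC mm10 annotation with featureCounts 1.4.6-p4, with no option for strand or multiple alignments. The header's command names 2 of the alignments MKU where the columns say MK2, and columns were matched to samples by the column names. Per the submitters' processing notes, the versions were TopHat2 2.0.13, Bowtie2 2.2.6 and featureCounts 1.5.0. Without strand, reads of overlapping transcripts cannot be told apart. A count of 0 allows up to 3 reads, 0.0991 to 0.119 CPM before TMM scaling.

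Counts were fitted with edgeR 4.0.16 in R 4.3.3: filterByExpr (minimum count 10), TMM scaling, and the quasi-likelihood F test of MK2 against MK1, two-sided, with Benjamini-Hochberg adjustment at 0.05 over all 12479 genes. Fold changes use a prior count of 2. A standard error is the size of the fit's own coefficient divided by the square root of F. It therefore does not belong exactly to the fold change printed beside it. The fit was tested on simulated data. Replicates differed by more than counting noise (median chi-square per gene 2.87 in MK1 and 4.28 in MK2), so no library was taken for a copy of another.

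The members, lists and tests were chosen with earlier results of these data known. Genes were named by rule: the 4 nearest tested neighbours on each side, the 4 called neighbours with the largest change, for each list up to 4 called genes that reached 1 CPM in the higher line, and the 5 nearest profiles. One gene that the rule named is not reported here. Alternatives covered scaling, DESeq2 1.42.0, count filters, the prior count, the neighbourhood's width, the replicate block and each library left out. Of the listed symbols, Csta1 and Alox15b were matched through synonyms, the latter to Alox8, which was already listed. Promoters came from RefSeq (GRCm38.p6), and all 3 genes had an entry.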

Additional observations from a re-analysis of the deposited data

How the results depend on the processing

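Krtdap kept its direction and log2 fold changes of 9.29 to 11.10 under all 13 alternatives, Sbsn lay between -0.35 and -0.03, and Dmkn between -0.12 and 0.21 with either sign. With each library left out in turn, the number of genes called higher lay between 1512 and 3219 and of genes called lower between 2166 and 3622, against 3238 and 3576 with all 4 libraries. In the upper-epidermis lists these ranges were 10 to 21 higher and 7 to 11 lower, and in the neighbourhood 0 to 2 higher and 6 to 12 lower. The lowest counts over all genes and the lists came without MK1 replicate 1. The count of 1 higher neighbour became 2 in DESeq2, 2 with no count filter, 2 with a filter at 1 CPM in 2 libraries, and 3 within 1000 kb, while the 11 lower neighbours became 5 within 250 kb, where fewer genes were tested. With the replicate block, 2736 genes were higher and 3175 lower, 17 and 11 in the upper-epidermis lists and 1 and 10 in the neighbourhood. The replicate numbers are not said to pair cultures, and deviations of same-numbered libraries had a correlation of -0.151 across 12479 genes. The Krtdap share of the cluster in MK2 was 71.7% per length and 34.6% by reads, by construction. Alternatives were followed for 47 tested genes, those that the rule named with Thbd and Fxyd5, and not for other genes that the text names. Of the 47, 31 were called, 6 of which lost the call and 0 of which reversed under an alternative, and 2 others gained one. Because the rule took genes of the lists only where they were called, the 31 follow from the choice. Among all genes tested, 54.6% were called. With a filter at 1 CPM in 2 libraries, Fam187b was called (adjusted p = 0.0494). Depth limits the MK1 level of Krtdap, which rests on 17 reads.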
